A study of Mus musculus with 14 samples.

Results

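The response of mouse neck skin to MC903 was described in 5 of the 14 libraries of the series, chosen by their labels alone. MC903 (calcipotriol) is an analogue of vitamin D that, applied to skin, activates the vitamin D receptor of keratinocytes and produces a dermatitis that is widely used as a mouse model of atopic disease. The treated group held 3 libraries from C57BL/6J mice that received 1 nmol MC903 in 100 µL ethanol on the shaved neck daily for 6 days. These mice were also injected into the peritoneum with 20 µg of an isotype control antibody every other day, with 3 injections before the first MC903 dose. The comparison group held 2 libraries from untreated C57BL/6J neck skin. All 5 libraries came from mice labelled female and 6 weeks old, and 1 mouse was used per sample according to the series' design text. Vehicle appears in the design text, yet no label says that the untreated skin received it. The library names of the untreated pair differ only by a suffix, and no label states that they came from different mice. Since treated and untreated mice differ in the antibody injections too, the effects of MC903 and of the injections cannot be told apart.

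Skin is covered by a stratified epidermis. Basal keratinocytes divide, and their daughters move upward while they switch keratins, cross-link envelope proteins beneath the membrane and secrete the lipids that seal the outer layer. Langerhans cells and gamma-delta T cells live among the keratinocytes, and the dermis below holds fibroblasts, vessels, hair follicles, sebaceous glands and fat. Polyadenylated RNA of the whole tissue was sequenced, so in every result below fewer cells of a type and less RNA per cell cannot be told apart.

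In all, 644 of 20939 genes tested differed between treated and untreated skin (3.08%, Benjamini-Hochberg adjusted p under 0.05 in edgeR's quasi-likelihood test). Of these, 283 rose (1.35%) and 361 fell (1.72%), and 3759 genes had an unadjusted p under 0.05. The calls in each gene list below are to be read beside these shares of 1.35% and 1.72%. DESeq2 on the same libraries called 1189 genes higher and 941 lower. Fitted to the 5 libraries alone, edgeR called 1498 of 17528 genes higher (8.55%) and 2055 lower (11.7%). The median log2 fold change was 3.63 among genes that rose and -2.69 among genes that fell. Over all genes tested it was 0.11. Levels are given as CPM (counts-per-million of the library total after TMM scaling), listed for untreated libraries 1 and 2 and then for isotype libraries 1, 2 and 3. CPM is not corrected for transcript length, so levels are compared between libraries and not between genes. Fold changes come from the fit, with the SE of the log2 value.

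**Figure D1:**
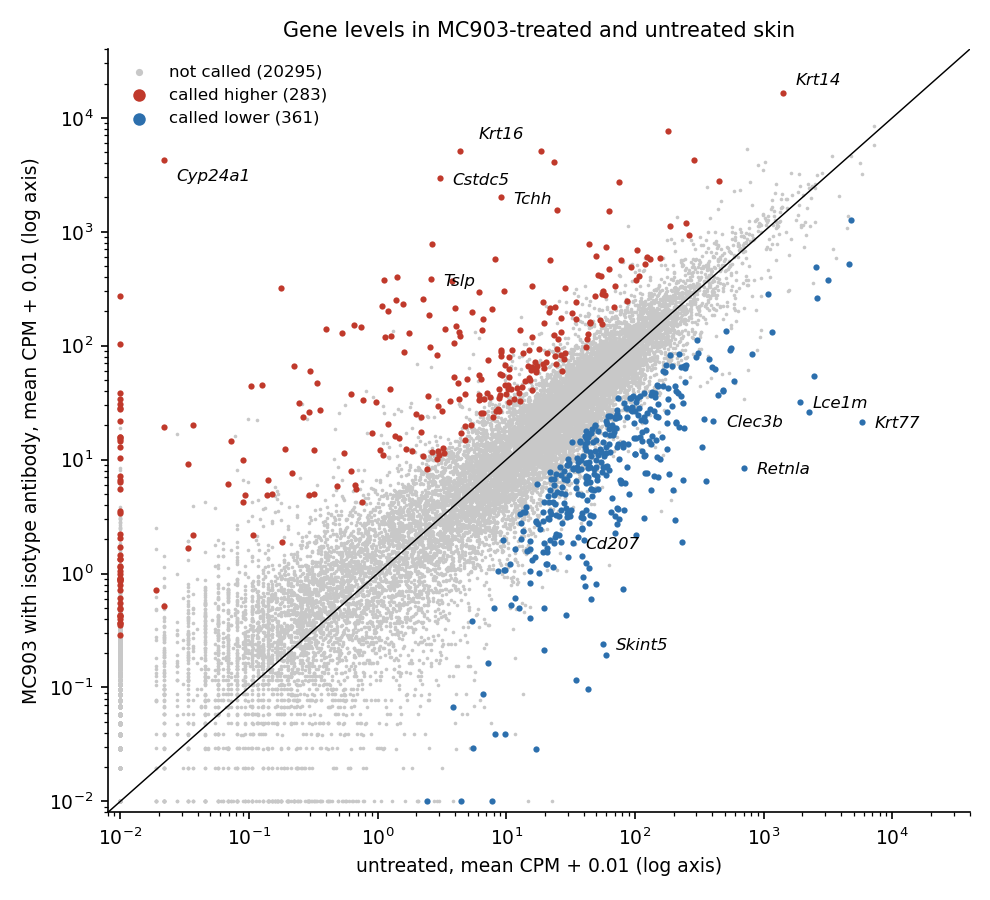
Mean CPM of every gene tested in MC903-treated skin (vertical axis, n = 3) against untreated skin (horizontal axis, n = 2), both on log axes after adding 0.01, with the line of equal levels. Red points are the 283 genes that rose and blue points the 361 that fell. Cyp24a1 lies at the upper left and Krt77 at the lower right.

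The treated libraries resembled each other more than the untreated ones did. Totals were 34.3 to 35.6 M counts in the isotype libraries and 55.3 and 37.5 M in the untreated libraries. Among genes with at least 10 CPM, 99 to 178 differed more than 2-fold between 2 isotype libraries, against 1163 of 10613 between the untreated libraries. Of the 644 called genes, 164 differed more than 2-fold between the untreated libraries, 107 of them higher in library 1. Defining markers of keratinocytes and fibroblasts (Krt5, Krt14 and Col1a1 among them) were present in all 5 libraries, while the 10 salivary gland genes tested together took 0.0023% to 0.009% of counts. The share of counts in skeletal muscle genes was 0.285% and 2.27% without treatment and 0.199% to 0.261% after MC903, with 0 of 18 called. Red blood cell genes took 0.143% and 0.0676% against 0.00651% to 0.0224%, with 0 of 5 called. Mitochondrial transcripts took 2.57% and 4.23% against 2.12% to 2.33%, with 0 of 13 called. In the fit of the 5 libraries alone 9 of 18 muscle, 4 of 5 red blood cell and 6 of 13 mitochondrial genes fell and 0 rose. Of all genes tested in that fit 11.7% fell and 8.55% rose. With the muscle share as a covariate 447 genes were called, 422 of them among the 644. The part of the other contents in the results was not tested.

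The number of called genes moved with each library. It was 116 without untreated library 1, 619 without untreated library 2, and 108, 110 and 132 without isotype libraries 1, 2 and 3. All 644 genes kept the direction of their change in these 5 fits, and 57 kept their call in each (0.272% of genes tested), 36 of them higher (0.172%) and 21 lower (0.1%). This set, defined after the data had been seen, is called the stable set below. All 644 called genes were without overlap between the groups, as were 26.2% (higher) and 22.6% (lower) of all genes tested. A lack of overlap therefore adds nothing to a call. It also all but fixed the direction in the 5 fits beforehand, so the kept direction is no support for a call.

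The stable set held several genes that no gene list or other naming rule covered, and those in this and the next paragraph were picked after their values had been seen. Pctp, a carrier of phosphatidylcholine between membranes, was at 9.94 and 9.16 CPM in untreated skin and at 306, 341 and 261 CPM after MC903. This was a 31.7-fold increase (log2 4.99 ± 0.54, adjusted p = 0.000613). Tubb3, a beta tubulin best known from neurons, was at 0.939 and 1.31 CPM against 121, 115 and 119 CPM, a 105-fold increase (log2 6.72 ± 0.78, adjusted p = 0.00107). Both genes were nearly level within each group, and the groups lay far apart. Tnfsf11 encodes RANKL, a TNF family ligand, and stood at 0.39 and 0.119 CPM against 25.5, 32 and 13.7 CPM (90.4-fold, adjusted p = 0.00528). Gsdmc, which encodes a pore-forming gasdermin, stood at 2.64 and 0.546 CPM against 76.8, 118 and 67.4 CPM (54.3-fold, adjusted p = 0.00751). Also stable were the increases of Fhl2, a LIM domain protein gene (42.4-fold), Serpina9, a serpin gene (352-fold), the slow muscle troponin gene Tnni1 (33.6-fold), the photoreceptor cadherin gene Cdhr1 (200.1-fold) and Tfpi2, a serine protease inhibitor (9.03-fold). The peptidase gene Ecel1 had 0 counts in both untreated libraries and 40.6, 18.5 and 23.8 CPM after MC903, at least 444-fold higher against a floor of 3 counts per library.

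Among stable decreases, Orm1, which encodes an acute-phase carrier protein, was at 204 and 107 CPM in untreated skin and at 8.42, 9.19 and 12.9 CPM after MC903. It fell 15.3-fold (log2 -3.94 ± 0.40, adjusted p = 0.000421). Tspan8, a tetraspanin gene, was at 92.2 and 88.6 CPM against 6.96, 3.2 and 4.68 CPM, an 18.3-fold decrease (log2 -4.19 ± 0.45, adjusted p = 0.00061). The treated libraries were low for both genes. Dapl1, a gene of differentiating epithelium, stood at 166 and 138 CPM against 5.97, 4.38 and 10.8 CPM and fell 21.5-fold (adjusted p = 0.000819). Clec3b (tetranectin, a plasminogen-binding lectin) fell 18.5-fold, Igfbp6 (which binds insulin-like growth factors) 12.1-fold, Pi16 (a marker of adventitial fibroblasts) 11.9-fold, Sema3d (a semaphorin) 7.76-fold and Cpxm2 (a carboxypeptidase-like protein) 7.08-fold. Apcdd1, an inhibitor of Wnt signalling, fell 5.23-fold, from 195 and 223 CPM to 32.3, 49.8 and 37.9 CPM.

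Keratins form the filaments of keratinocytes, and each layer has its own pairs. In the basal layer the keratins parted. Krt14 stood at 1968 and 853 CPM in untreated skin and at 13911, 18935 and 16278 CPM after MC903, and rose 11.6-fold (log2 3.54 ± 0.84, adjusted p = 0.0372). Its partner Krt5 stood at 3743 and 1274 CPM against 1864, 2700 and 2692 CPM, with overlap between the groups (log2 -0.05 ± 0.64, adjusted p = 0.994). Krt15, the alternative basal keratin, which also marks resting basal and follicle stem cells, went the other way. It stood at 4741 and 1572 CPM against 393, 277 and 455 CPM and fell 8.42-fold (log2 -3.07 ± 0.48, adjusted p = 0.00623). All 3 treated libraries were above both untreated ones for Krt14 and below both for Krt15. Of 15 basal keratinocyte genes, 1 rose and 1 fell, Krt14 and Krt15, and the median log2 fold change was 0.20. Untreated library 1 was higher than library 2 in each of these keratins.

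Above the basal layer, Krt1 and Krt10 did not pass. Krt1 stood at 1179 and 294 CPM against 1648, 8587 and 5644 CPM (log2 2.85 ± 0.99, adjusted p = 0.149), and Krt10 at 8730 and 2890 CPM against 587, 5137 and 3916 CPM (log2 -0.85 ± 0.87, adjusted p = 0.63). Isotype library 1 was the lowest treated library for both. Krt77, a suprabasal keratin of interfollicular skin and sweat ducts, stood at 8573 and 2992 CPM against 16.8, 24.1 and 23.6 CPM and fell 269-fold (log2 -8.07 ± 1.36, adjusted p = 0.0106). Among called genes, Krt77 lost the most mean CPM and Krt14 gained the most. Of 18 suprabasal and envelope scaffold genes, 1 rose (Csta1) and 1 fell (Krt77), with a median log2 fold change of -0.01.

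Of 4 keratins that normally appear in wounded or hyperproliferative epidermis, Krt16, Krt6a and Krt6b rose and Krt17 did not pass. Krt16 was at 31 and 6.15 CPM against 4421, 5451 and 5350 CPM (273-fold, log2 8.09 ± 1.17, adjusted p = 0.00475). Krt6a was at 290.2 and 69 CPM against 6448, 8611 and 8152 CPM (43.1-fold, log2 5.43 ± 0.99, adjusted p = 0.0132). Both belong to the stable set, and the treated libraries lay close together. Krt6b, at 8.7 and 0 CPM against 4286, 6737 and 4172 CPM, rose too (log2 10.18 ± 2.25, adjusted p = 0.0312). Krt17 was at 1379 and 599.9 CPM against 2673, 2056 and 5812 CPM and did not pass (log2 1.83 ± 0.63, adjusted p = 0.144). The simple epithelial keratin Krt18 fell 33.9-fold (adjusted p = 0.0303) and Krt19, found in follicle bulge and glands, fell 111-fold (adjusted p = 0.00222). Untreated library 1 held 145 CPM of Krt19 and library 2 held 15.7 CPM, against at most 0.999 CPM after MC903. Of 8 stress and simple keratins, 3 rose and 1 fell (Krt18), while Krt19 was counted among follicle stem cell genes, of which 2 of 28 fell and 0 rose.

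**Figure D2:**
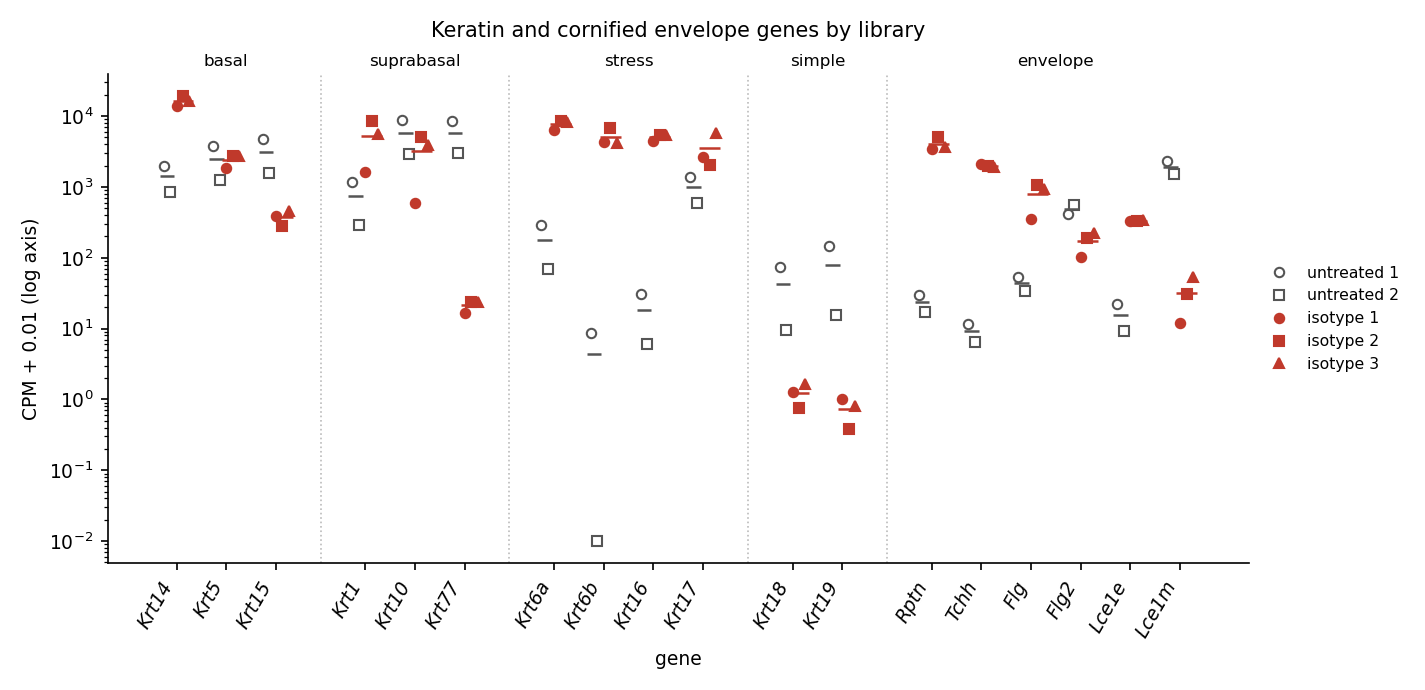
CPM (plus 0.01, log axis) of keratin and envelope genes in each of the 2 untreated (open grey) and 3 isotype (filled red) libraries, with bars at the group means. Krt14 rises while Krt15 falls and Krt5 overlaps, and Lce1e and Lce1m move in opposite directions.

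Cornified envelope genes rose in several families, and members of the same family could move apart. Rptn (repetin) was at 30.1 and 16.9 CPM against 3405, 5114 and 3686 CPM and rose 173-fold (log2 7.44 ± 0.74, adjusted p = 0.000378). Tchh (trichohyalin), which is otherwise made in the inner root sheath of the hair, was at 11.7 and 6.53 CPM against 2111, 1971 and 1915 CPM and rose 219-fold (log2 7.78 ± 0.66, adjusted p = 0.000167). Both genes were stable, and every treated library was far above both untreated ones for each. Flg (filaggrin), which bundles keratin filaments, was at 54.3 and 33.8 CPM against 357, 1075 and 922 CPM and rose 17.8-fold (adjusted p = 0.0199). Flg2 stood at 410.1 and 554 CPM against 101, 193 and 222 CPM and did not pass (log2 -1.49 ± 0.43, adjusted p = 0.0808). All treated libraries were below both untreated ones for Flg2 and above them for Flg, as for 22.6% and 26.2% of all genes tested. Of 12 genes of the filaggrin family and its processing, 4 rose and 0 fell, with a median log2 fold change of 3.91. In the fit of these 5 libraries alone 10 rose and 1 fell, where 8.55% of 17528 genes tested rose and 11.7% fell.

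Late cornified envelope genes of group 1 encode small proteins that are cross-linked late in differentiation. Lce1m stood at 2351 and 1515 CPM in untreated skin and at 12.2, 30.9 and 52.9 CPM after MC903, a stable decrease of 60.5-fold (log2 -5.92 ± 0.86, adjusted p = 0.00513). Its neighbours in the family Lce1e (21.1-fold), Lce1g (97.2-fold) and Lce1k (26.1-fold) rose, with Lce1e at 22.5 and 9.14 CPM against 331, 330.3 and 338 CPM. In all, 3 of 15 members rose and 1 fell. Near-identical copies share reads, so the split between single members of the Lce1, Sprr2, stefin A, Skint, Mup and Ccl27 families is uncertain.

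Of 15 small proline-rich protein genes, whose products are cross-linked into the envelope, 5 rose and 0 fell, with a median log2 fold change of 6.02, or 5.22 with the gene absent from 1 group at its bound. Sprr2h was at 1.68 and 0.451 CPM against 279.5, 184 and 201 CPM (205-fold, stable), and Sprr1b at 2.18 and 0.0237 CPM against 398, 358 and 381 CPM (338-fold, adjusted p = 0.0155). Stefin A genes encode inhibitors of cysteine proteases such as cathepsins, and 9 of 12 rose with 0 lower, 7 of them in the stable set. The list had a median of 8.72 on the log2 scale, which became 7.75 once absent genes were set to their bound. Cstdc5 was at 5.42 and 0.688 CPM against 3676, 3016 and 2124 CPM (957-fold, log2 9.90 ± 1.07, adjusted p = 0.00061). Stfa2, at 0.337 and 0 CPM in untreated skin, reached 445, 269.7 and 240.5 CPM. Both belong to the stable set, and isotype library 1 was the highest for both.

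Kallikreins are serine proteases that cut the contacts between cornified cells, and the Spink and Wfdc proteins restrain such proteases. Of 17 genes on this list 7 rose and 1 fell. Klk6 was at 39.9 and 9.37 CPM against 1581, 1244 and 1831 CPM (63-fold, adjusted p = 0.0159), and Klk13 at 1.93 and 0.831 CPM against 280.2, 256 and 226 CPM (182-fold, adjusted p = 0.0106). Klk7, a main protease of the outer layer, was at 455 and 272 CPM against 2253, 2412 and 2724 CPM and did not pass (log2 2.76 ± 0.76, adjusted p = 0.0664). Among the inhibitors, Wfdc12 rose 231-fold from 0.851 and 0.451 CPM to 157, 169 and 131 CPM, a stable change. Spink12, at 0 counts in untreated skin, was at least 499-fold higher. Serpinb7, a serpin of the upper epidermis, fell 9.73-fold, from 178 and 86.9 CPM to 7.79, 17.4 and 15.7 CPM (adjusted p = 0.0141).

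On the lists of cell contacts, 3 of 17 tight and gap junction genes and 1 of 14 desmosome genes were called. Of all genes tested 1.35% rose and 1.72% fell. The gap junction genes Gjb2 (connexin 26, 70.4-fold) and Gjb6 (connexin 30, 113-fold) rose and were stable, with Gjb2 at 11.7 and 4.58 CPM against 629, 593 and 499 CPM. Cldn8, a tight junction claudin, fell 5.66-fold (adjusted p = 0.0394). The desmosome gene was Dsc2 (desmocollin 2), at 6.08 and 6.41 CPM against 35.8, 34.4 and 31.9 CPM (5.45-fold, adjusted p = 0.0205). Fitted to the 5 libraries alone, 3 of the 17 junction genes rose and 4 fell. Of the 14 desmosome genes 4 rose and 0 fell in that fit, against 8.55% and 11.7% of all genes tested.

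Genes of lipid synthesis rose in several branches. The barrier lipid list covers enzymes that build the very long ceramides of the outer layer, and 7 of 24 rose with 0 lower (median log2 fold change 1.08). Elovl4, which elongates fatty acids to the lengths used in these ceramides, was at 497 and 396 CPM against 2723, 3440 and 2178 CPM (6.22-fold, log2 2.64 ± 0.56, adjusted p = 0.0252). Fa2h, which hydroxylates them, rose 4.91-fold, Slc27a4, a fatty acid transporter, 4.36-fold and Elovl7 7.25-fold. Isotype library 3 was the lowest treated library for each of these 4 genes. The key genes of the same list did not pass. They were Alox12b (log2 0.49, adjusted p = 0.822), Aloxe3 (log2 0.65, adjusted p = 0.55), Abca12 (log2 1.05, adjusted p = 0.35) and Cers3 (log2 0.96, adjusted p = 0.462). Of 24 sterol synthesis genes 6 rose and 0 fell (median 0.87). Idi1, which makes an isoprenoid building block of the pathway, was at 80.5 and 105 CPM against 648, 490.3 and 346 CPM (5.34-fold, log2 2.42 ± 0.54, adjusted p = 0.0305). Cyp51 (3.76-fold), Msmo1 (3.72-fold) and Pmvk (2.36-fold), enzymes of the same pathway, rose as well. None of the barrier lipid and sterol genes belongs to the stable set. In the fit of the 5 libraries alone 11 of 24 barrier lipid and 14 of 24 sterol genes rose, against 8.55% of all genes tested.

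Sebaceous gland genes split. Elovl3, an elongase of sebum lipids, was at 24.6 and 19.2 CPM against 669, 645 and 390.1 CPM (25.9-fold, log2 4.70 ± 0.64, adjusted p = 0.00298). Awat1, which makes wax esters, rose 8.06-fold and Far2, which makes fatty alcohols, 4.4-fold. Scd3, a sebocyte desaturase, was at 144 and 136 CPM against 3.25, 10.9 and 7.22 CPM and fell 19.7-fold (log2 -4.30 ± 0.55, adjusted p = 0.00207). Dgat2, which makes triglycerides, was at 723 and 365 CPM against 71.2, 98.9 and 105 CPM and fell 5.92-fold (adjusted p = 0.00472). Scd1, the related desaturase, stood at 1104 and 1693 CPM against 2217, 2472 and 1750 CPM and did not pass (adjusted p = 0.489). Of 24 genes, 6 rose and 2 fell, and Elovl3, Scd3 and Dgat2 were stable.

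Retinoid handling genes rose, 5 of 22 with 0 lower (median log2 fold change 0.84). Rbp2, a cellular retinol-binding protein gene, was at 10 and 5.34 CPM against 219, 230 and 181 CPM (27.3-fold, log2 4.77 ± 0.69, adjusted p = 0.00472) and was stable. Lrat, which esterifies retinol, was at 0.248 and 4.72 CPM against 185, 205 and 167 CPM (75.1-fold, adjusted p = 0.0312). Crabp2, which carries retinoic acid to its receptor, rose 12.3-fold and Fabp5, a fatty acid and retinoic acid carrier, 14.8-fold. For the vitamin D pathway itself, the receptor gene Vdr stood at 67.3 and 45.2 CPM against 67.4, 72.2 and 95.1 CPM and did not pass (log2 0.48 ± 0.48, adjusted p = 0.631). The receptor's target Cyp24a1, which degrades vitamin D, had 1 count in the untreated libraries together and reached 4510, 4633 and 3722 CPM, a stable change. Of 17 genes of vitamin D and calcium handling 3 rose and 0 fell.

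Of 23 genes of eicosanoid metabolism 5 fell and 1 rose, with a median log2 fold change of -0.16. Hpgd, which inactivates prostaglandins, was at 46.2 and 50.6 CPM against 6.56, 8.42 and 7.33 CPM and fell 6.51-fold (log2 -2.70 ± 0.40, adjusted p = 0.00506), a stable change. Ptger3, which encodes a receptor of prostaglandin E2 and was singled out from the stable set, was at 54.2 and 36.3 CPM against 6.14, 4.9 and 5.35 CPM (8.28-fold lower, adjusted p = 0.00528). Both groups were narrow for these genes, and the treated libraries were the low ones. Alox12e, an epidermal lipoxygenase, fell 12.8-fold, Hpgds, which makes prostaglandin D2, 2.63-fold and Alox5, the first enzyme of leukotriene synthesis, 3.3-fold. Pla2g4e, a phospholipase, rose 36.4-fold, from 4.09 and 6.72 CPM to 183, 227 and 179 CPM (log2 5.18 ± 0.75, adjusted p = 0.00472). Ptgs2 (COX-2) stood at 10.1 and 1.38 CPM against 160.2, 156 and 81.3 CPM and did not pass (log2 4.52 ± 1.27, adjusted p = 0.0786).

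**Figure D3:**
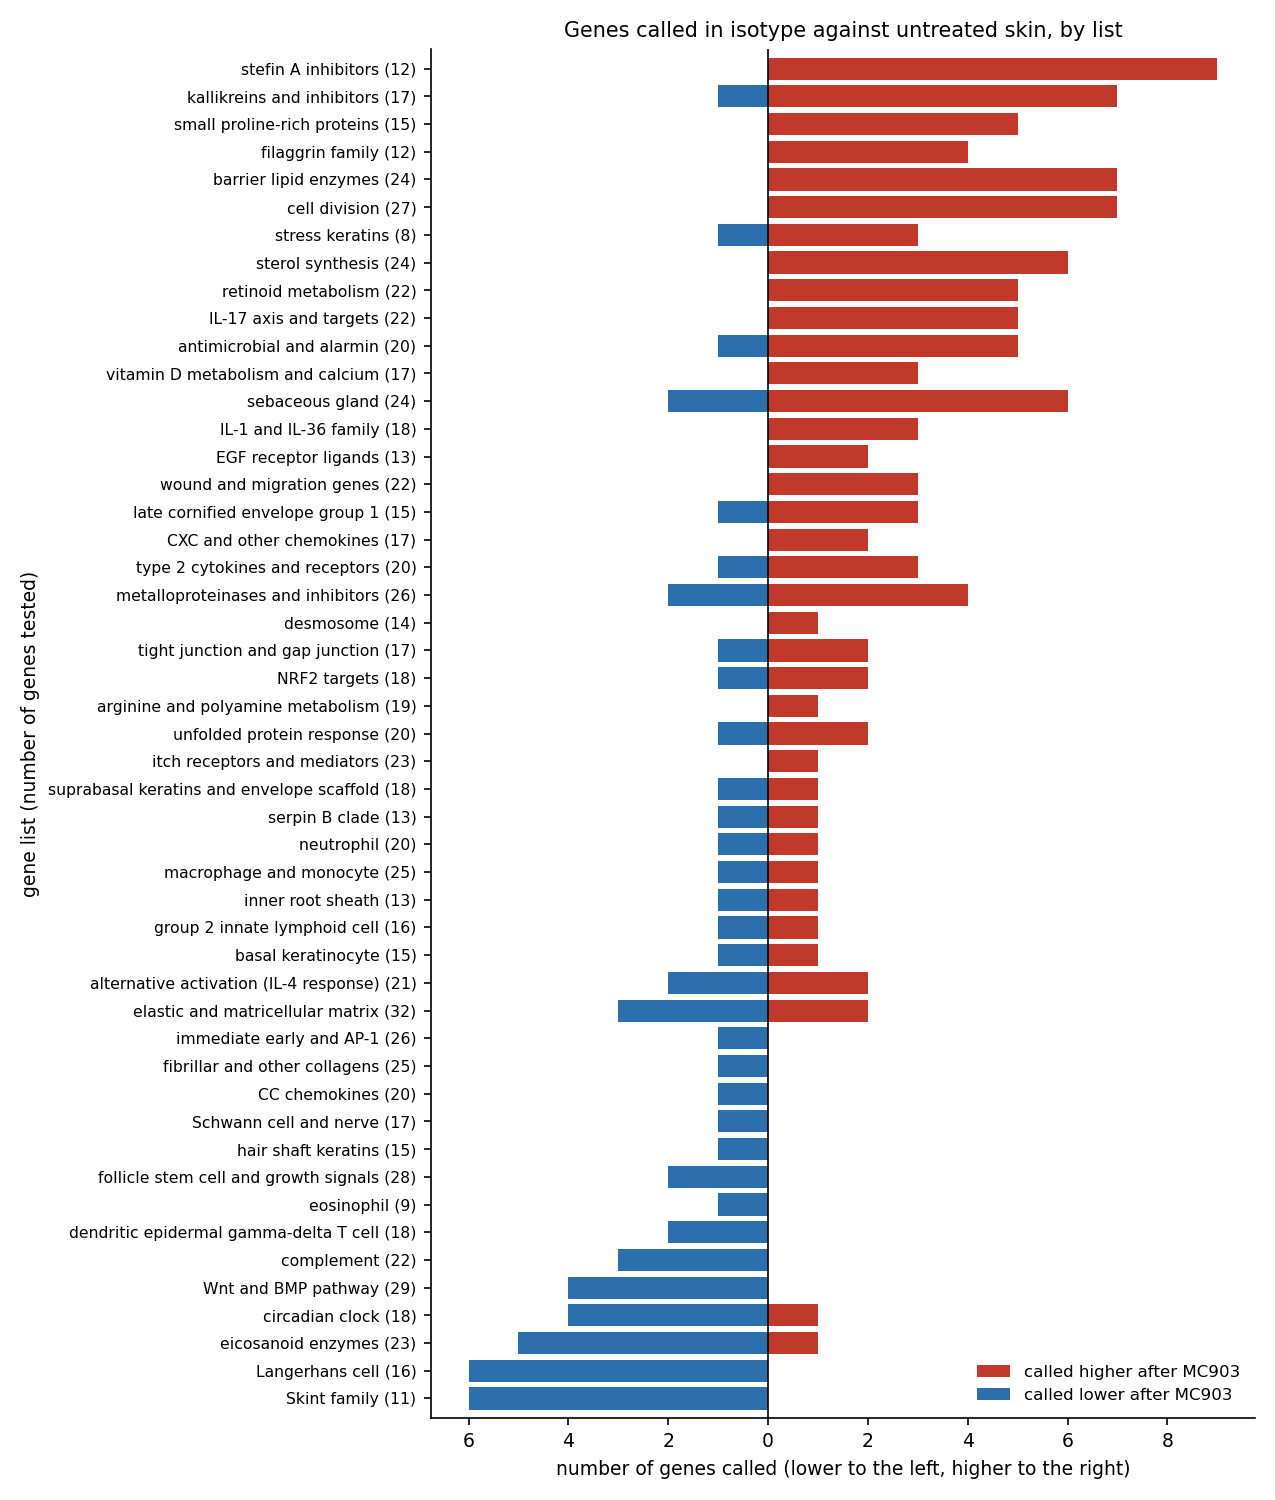
Number of genes called higher (red, to the right) and lower (blue, to the left) after MC903 in each gene list with at least 1 call, ordered by the net share, with the number tested in brackets. Stefin A genes stand at the top with 9 of 12 higher, and Langerhans cell and Skint genes at the bottom with 6 lower each.

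Several genes tied to the immune cells of the epidermis fell. Cd207, which encodes langerin, the defining marker of Langerhans cells, was at 36.1 and 29.6 CPM against 1.6, 1.18 and 2.78 CPM (17.7-fold lower, stable). Of 16 Langerhans cell genes, 6 fell and 0 rose, with a median log2 fold change of -2.51. In the fit of the 5 libraries alone 11 of the 16 Langerhans cell genes fell, against 11.7% of all genes tested. Il34, the cytokine on which these cells depend, was at 87.6 and 56.6 CPM against 12, 13.4 and 13.4 CPM and fell 5.57-fold (log2 -2.48 ± 0.42, adjusted p = 0.0099). The class II antigen presentation genes Cd74 (9.88-fold), H2-Ab1 (8.76-fold), H2-DMb1 (7.86-fold) and H2-DMa (10.8-fold) fell too, with Cd74 at 2698 and 2485 CPM against 325, 199.6 and 262 CPM. They are expressed by other antigen-presenting cells as well. With Cd207 and Il34 they make up the 6 calls, of which only Cd207 is a defining marker of Langerhans cells.

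Skint genes encode membrane proteins of keratinocytes, and Skint1 is needed to select the gamma-delta T cells that settle in mouse epidermis. All 11 members tested were lower in every treated library than in both untreated ones, a pattern seen in 22.6% of all genes tested, and 6 fell. Skint5 was at 53.8 and 59 CPM against 0.314, 0.288 and 0.0877 CPM (log2 -7.91 ± 0.78, adjusted p = 0.000378, stable). Skint11 was at 26 and 22 CPM against 1.68, 2.59 and 1.99 CPM (11.5-fold, adjusted p = 0.00939). Skint6 fell 42.1-fold and Skint10 22.4-fold. Skint1 itself was at 14.2 and 8.33 CPM against 3.77, 5.1 and 4.35 CPM and did not pass (log2 -1.36 ± 0.56, adjusted p = 0.217), nor did Skint3 (log2 -1.23 ± 0.50, adjusted p = 0.211). Among 18 genes of the epidermal gamma-delta T cells, 2 fell and 0 rose (median log2 fold change -1.77). Trdc, the constant region of the delta chain, was at 26.9 and 14.5 CPM against 1.63, 0.519 and 1.49 CPM (17-fold, adjusted p = 0.027), and the granzyme gene Gzmc fell 10.6-fold (adjusted p = 0.0256). Of 25 alpha-beta T cell genes 0 were called. In the fit of the 5 libraries alone 10 of the 18 gamma-delta T cell genes fell and 0 rose. Of the 25 alpha-beta T cell genes 4 fell and 1 rose in that fit, against 11.7% and 8.55% of all genes tested.

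Of 20 CC chemokine genes 1 fell and 0 rose, and of 17 CXC and other chemokine genes 2 rose and 0 fell. Of all genes tested 1.72% fell and 1.35% rose. Ccl27a, which keratinocytes make and which attracts skin-homing T cells, was at 123 and 102 CPM against 13.6, 10.6 and 28.1 CPM and fell 6.46-fold (log2 -2.69 ± 0.41, adjusted p = 0.00539, stable). Its near copy Ccl27b, singled out from the stable set, fell 8.96-fold, from 94.4 and 105 CPM to 8.39, 7.15 and 17.8 CPM. Isotype library 3 was the highest treated library for both. Cxcl13, which attracts B cells, was at 6.13 and 11.9 CPM against 88, 91.9 and 93 CPM (10.1-fold, adjusted p = 0.0334), and Cxcl5, which attracts neutrophils, rose 111-fold (adjusted p = 0.0439) to 15.4, 4.5 and 10.1 CPM.

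Genes named for the response of macrophages to IL-4 went both ways. Chil3, which encodes the lectin Ym1, was at 0.886 and 0.641 CPM against 35.6, 21.7 and 42.4 CPM (43.2-fold, log2 5.43 ± 0.79, adjusted p = 0.00472, stable). Retnla, another gene of that response, was at 691 and 724 CPM against 12.2, 4.58 and 8.8 CPM and fell 83.1-fold (log2 -6.38 ± 1.36, adjusted p = 0.0272). Which cells of the skin the RNA of these genes came from was not tested. Mgl2, a lectin of dermal dendritic cells and macrophages, fell 8.8-fold, and Il13ra2, a decoy receptor of IL-13, rose 4.82-fold. These were the calls among 21 genes. Of 25 macrophage and monocyte genes, Chil3 rose and Plac8, a monocyte gene, fell 6.39-fold. Ear2, an eosinophil-associated ribonuclease that some monocytes also make, was at 58.7 and 81.6 CPM against 3.82, 1.59 and 4.09 CPM (22.1-fold lower, stable). It was the call among 9 eosinophil genes.

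**Figure D4:**
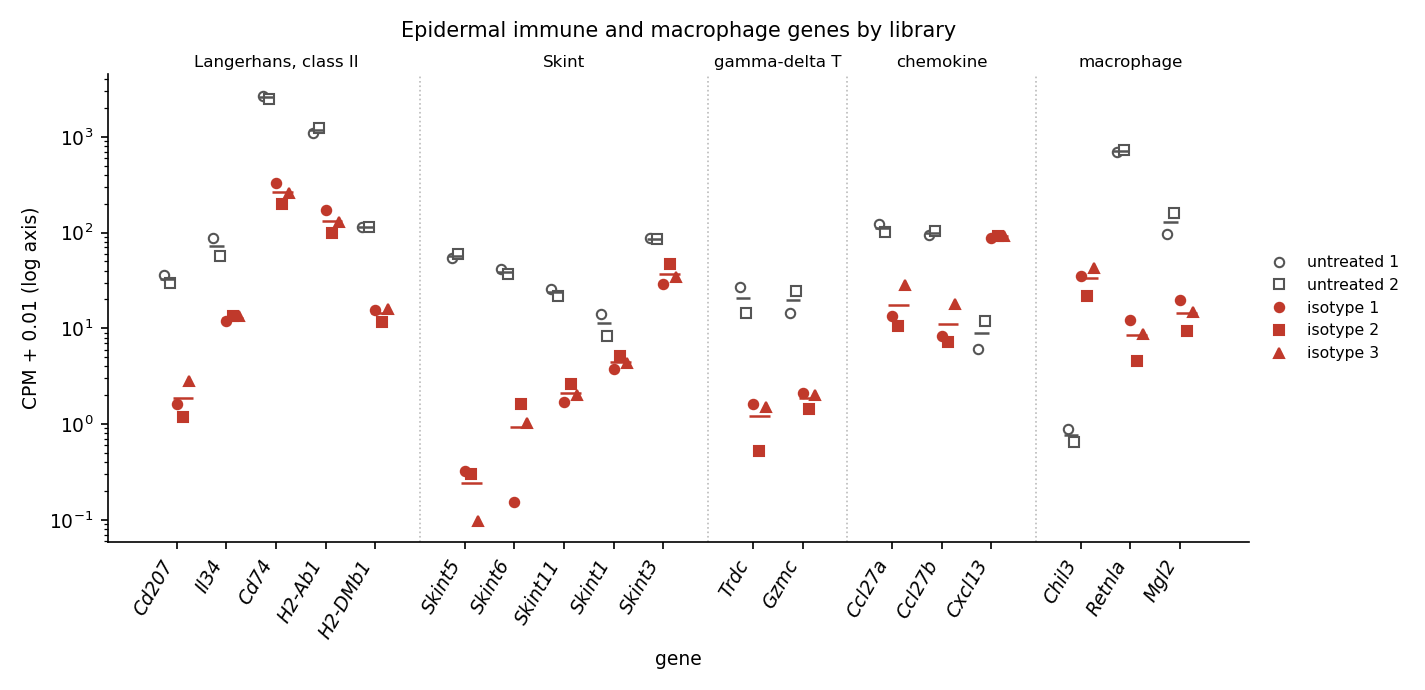
CPM (plus 0.01, log axis) of epidermal immune, chemokine and macrophage genes in each of the 2 untreated (open grey) and 3 isotype (filled red) libraries, with bars at the group means. All genes shown from the Langerhans cell and Skint lists are lower in the treated libraries, and Chil3 and Retnla move in opposite directions.

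Among type 2 cytokine and receptor genes 3 of 20 rose and 1 fell. Il1rl1, which encodes the IL-33 receptor, was at 11.9 and 5.93 CPM against 63.5, 50.1 and 53.9 CPM (6.24-fold, log2 2.64 ± 0.49, adjusted p = 0.0136). Tslp, the keratinocyte cytokine by which MC903 is known to act, rose 148-fold (log2 7.21, adjusted p = 0.00539) but was outside the stable set. It stood at 573, 275 and 299 CPM after treatment, highest in isotype library 1. Gata3, a transcription factor of type 2 lymphocytes that keratinocytes and hair follicles also express, fell 4.86-fold, from 203 and 97.3 CPM to 33.5, 33 and 26.4 CPM (adjusted p = 0.0181). The cytokine genes themselves were low. Il4 was at 1.54 and 1.19 CPM against 1.28, 0.778 and 0.292 CPM, with 82 counts in the treated libraries together. Il13 had 42 counts in the untreated and 6 in the treated libraries, and neither passed (adjusted p = 0.7 and 0.472).

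Several epithelial cytokine and antimicrobial genes rose from low levels. On a list of the IL-17 axis and its known targets 5 of 22 rose and 0 fell. The defensin genes Defb14 and Defb4 had 1 and 0 counts in the untreated libraries together and reached 29, 16.9 and 12.2 CPM and 20.1, 14.5 and 12.4 CPM, and the change of Defb14 was stable. Il24 was at 0 counts in untreated skin and at 12.3, 5.39 and 3.89 CPM after MC903, while Il19 rose 10.8-fold (adjusted p = 0.0422). Isotype library 1 was the highest in all 4 of these genes. Among 20 antimicrobial genes 5 rose and 1 fell. Saa3, an acute-phase protein gene, was at 1.47 and 1.04 CPM against 192, 83.3 and 93.4 CPM (97.1-fold, adjusted p = 0.00651). S100a8, an alarmin of neutrophils and stressed keratinocytes, was at 6.82 and 1.8 CPM against 56.3, 19.7 and 16 CPM and did not pass (log2 2.82 ± 0.78, adjusted p = 0.0708). Wfdc21 fell 10.9-fold, from 122 and 116 CPM to 8.73, 12.6 and 11.3 CPM (adjusted p = 0.0117). Among 13 genes of EGF family ligands, their receptors and regulators 2 were called, both higher, Nrg1 (neuregulin 1, 33.2-fold) and Epgn (epigen, 20.9-fold). The ligand genes Areg, Ereg, Hbegf and Tgfa, the key genes of this list, did not pass, nor did Btc and Egf.

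Among genes of the extracellular matrix, which in whole skin cannot be assigned to a layer, several proteases and a wound matrix protein rose, while the median log2 fold change was -0.62 over 25 collagen genes and -0.67 over 32 other matrix genes. Tnc (tenascin C), a matrix protein of wounds, was at 8.13 and 4.2 CPM against 420.4, 208 and 253 CPM (47.5-fold, log2 5.57 ± 0.84, adjusted p = 0.00539, stable). Mmp13, a collagenase, was at 0.443 and 1.02 CPM against 221, 87 and 132 CPM (201-fold, adjusted p = 0.00997), and Mmp3 (stromelysin) at 41.5 and 56.1 CPM against 395, 168 and 257 CPM (5.61-fold, adjusted p = 0.0238). Isotype library 1 was the highest for all 3 genes. Of 26 metalloproteinases and inhibitors, Mmp13, Mmp3, Mmp19 (5.3-fold) and Adamts4 (17.1-fold) rose, and Mmp23 (9.55-fold) and Mmp27 (4.73-fold) fell. On a list of wound and migration genes 3 of 22 rose, Tnc, the hyaluronan receptor Cd44 (3.71-fold) and the integrin Itgb6 (4.73-fold).

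Of 25 collagen genes 0 rose and 1 fell, Col14a1, a collagen that binds fibril surfaces (10.1-fold, adjusted p = 0.0271). Col1a1, the main dermal collagen, was at 2179 and 5095 CPM against 555, 613 and 595 CPM and did not pass (log2 -2.63 ± 0.74, adjusted p = 0.074). In the fit of the 5 libraries alone 13 of the 25 fell and 2 rose, against 11.7% and 8.55% of all genes tested. Among 32 other matrix genes 2 rose and 3 fell. Thbs1 (thrombospondin 1) rose 5.1-fold. Ogn (osteoglycin, 14.1-fold), Sparc (a collagen-binding protein, 5.14-fold) and Mfap5 (a microfibril protein, 5.04-fold) fell, with Sparc at 2239 and 2852 CPM against 472, 459 and 556 CPM. Of 29 Wnt and BMP pathway genes 4 fell and 0 rose, among them Wnt3 (21.3-fold), Wnt7b (11.4-fold) and the secreted inhibitor Sfrp4 (76.7-fold). Wnt3 was at 45 and 14.8 CPM against 0.913, 1.61 and 1.67 CPM (adjusted p = 0.00968). Of 22 complement genes 3 fell and 0 rose, Cfd (8.97-fold), C1ra (3.03-fold) and Cd55 (3.64-fold). In the fit of the 5 libraries alone 12 of the 22 fell, against 11.7% of all genes tested. Cfd is also a main product of fat cells and stood at 5422 and 3836 CPM against 474, 461 and 613 CPM. Among further fat cell genes, picked after their values had been seen, Adipoq (11.85-fold), Plin1 (25.75-fold) and Lep (46.8-fold) fell. Pparg, which fat cells also express, did not pass (log2 -0.07). Other large losses of CPM were those of Car3, a carbonic anhydrase of fat and muscle (45.2-fold), the major urinary protein gene Mup22 (86.3-fold) and the actin-severing gene Gsn (3.71-fold).

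Circadian clock genes changed in both directions. The clock is a feedback loop in which CLOCK and BMAL1 bind E-boxes, of the letters CACGTG, in the promoters of their targets, whose products include the repressors of the loop. Nr1d1 (REV-ERB alpha), a repressor within the loop, was at 169.9 and 122 CPM against 12.1, 16.8 and 15.6 CPM and fell 9.84-fold (log2 -3.30 ± 0.51, adjusted p = 0.00575, stable). Dbp, an output transcription factor, was at 198 and 69.8 CPM against 6.71, 5.45 and 4.03 CPM (24.8-fold lower, adjusted p = 0.0203). Its relatives Hlf (7.31-fold) and Tef (2.56-fold) fell as well. Cry1, a repressor of the loop, rose 5.01-fold, from 8.03 and 5.43 CPM to 34.5, 34.2 and 32.6 CPM (log2 2.32 ± 0.40, adjusted p = 0.0106). These 5 were the calls among 18 clock genes, 1 higher and 4 lower. The hour at which the skin was taken is not given in the sources used here.

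Promoter windows of 250 bases before the gene start were read from a RefSeq table of the mouse build GRCm38.p6, in which 15 genes of the clock list had 20 windows. The E-box letters, chosen after the values of the clock genes had been seen, read the same on both strands and were in 6 of these 20 windows and in 6.02% of 32851 windows of all genes. Both a gene that fell (Tef, 65.1 CPM in isotype library 3 against 139 CPM in untreated library 2) and the gene that rose (Cry1) held a match, and no match was found in the windows of Nr1d1, Dbp and Hlf. Both windows of Tef held a match. The remaining windows with a match belonged to Per1, Ciart and Bhlhe41, which were not called. The windows of Tef (chr15:81811164-81811413, plus strand, 1 of 2 windows of this gene) and Cry1 (chr10:85185055-85185304, minus strand) are shown 5′ to 3′ because these genes moved in opposite directions. Capitals mark the E-box, which begins 138 bases before the start of Tef and 60 bases before that of Cry1.
Tef: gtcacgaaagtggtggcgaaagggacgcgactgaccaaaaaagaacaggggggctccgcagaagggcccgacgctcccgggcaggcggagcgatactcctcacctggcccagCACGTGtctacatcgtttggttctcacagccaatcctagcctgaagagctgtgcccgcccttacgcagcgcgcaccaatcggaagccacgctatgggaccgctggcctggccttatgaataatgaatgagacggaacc
Cry1: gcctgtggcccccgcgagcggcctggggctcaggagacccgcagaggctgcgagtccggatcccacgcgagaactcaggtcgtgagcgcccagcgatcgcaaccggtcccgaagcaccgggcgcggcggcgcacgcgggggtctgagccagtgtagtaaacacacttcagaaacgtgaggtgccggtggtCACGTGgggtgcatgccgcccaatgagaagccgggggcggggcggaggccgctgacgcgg

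Some lists differed mainly by a single library. Several immediate early genes, which are switched on within minutes by stress or handling, were high in untreated library 1 alone. Fos stood at 1495 CPM there, at 16.8 CPM in untreated library 2 and at 62.2, 62 and 59.8 CPM after MC903, and did not pass (adjusted p = 0.0933). Of 26 genes on this list only Atf3 was called, 24.5-fold lower, at 353 and 16.2 CPM against 9.59, 4.67 and 8.33 CPM (adjusted p = 0.0261). The treated libraries lay between the untreated ones for Fos, and below both for Atf3. Keratins of the inner root sheath of growing hair were high in isotype library 1 alone. Krt25 was at 49.2 CPM there and at 0.0288 and 0.701 CPM in isotype libraries 2 and 3, and Krt71 at 54.5 CPM against 0.605 and 0.38 CPM. Neither passed (adjusted p = 0.224 and 0.318), and both were under 1 CPM in untreated skin. Tchh, also an inner root sheath gene, was level across the treated libraries.

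**Figure D5:**
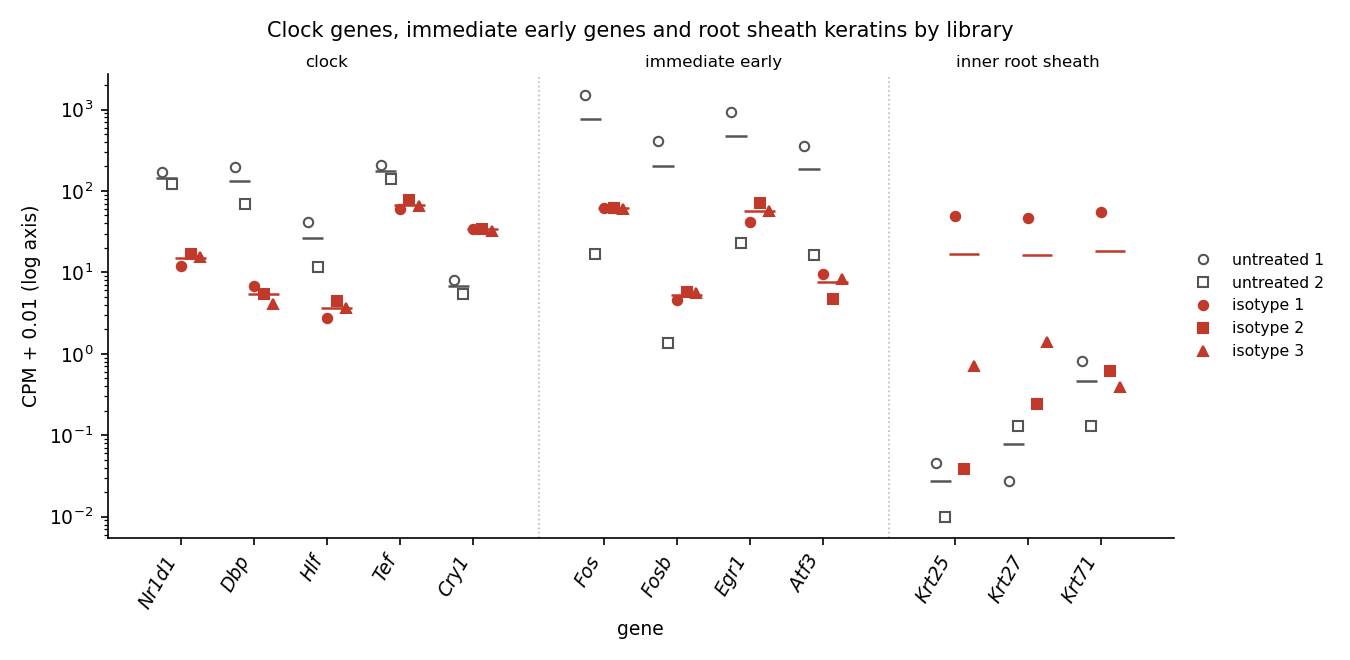
CPM (plus 0.01, log axis) of clock, immediate early and inner root sheath genes in each of the 2 untreated (open grey) and 3 isotype (filled red) libraries, with bars at the group means. The groups are apart for the clock genes, while untreated library 1 alone is high for Fos and isotype library 1 alone for Krt25.

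Of the 63 gene lists 14 held no called gene. Among them were endothelium (21 genes tested), lymphatic endothelium (11), pericytes and smooth muscle (16), melanocytes (14), the Notch pathway (15), glycolysis and hypoxia (26) and cytosolic ribosomal proteins (30). For the last of these the median log2 fold change was 0.33. In the fit of the 5 libraries alone 8 of 26 glycolysis and hypoxia genes rose and 1 fell, and 4 of 13 melanocyte genes rose and 0 fell. Of all genes tested in that fit 8.55% rose and 11.7% fell. Cell division genes had 7 of 27 higher and 0 lower, with Mki67, the usual marker of cycling cells, at 16.3 and 18.2 CPM against 55.1, 86.1 and 56.9 CPM (3.82-fold, adjusted p = 0.0148).

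The other MC903-treated control arm of the series was Il4ra fl/fl skin, from C57BL/6J Il4ra fl/fl mice labelled female and 6 to 7 weeks old that had no injections (3 libraries). Isotype and fl/fl skin were compared directly in the same fit, where 1094 genes differed (5.22%), 832 higher (3.97%) and 262 lower (1.25%) in isotype skin. Of the 644 genes called against untreated skin, 101 differed between the arms. The same 3 isotype libraries entered both comparisons, so the direction of these differences is not independent of the calls. Chil3 was higher in isotype skin by 2.63 on the log2 scale (adjusted p = 0.035), Il1rl1 by 1.86 (adjusted p = 0.0347), Mmp3 by 1.70 (adjusted p = 0.0412) and Thbs1 by 2.01 (adjusted p = 0.0325). Mup22 was at -5.09 (adjusted p = 0.0352), Car3 at -4.51 (adjusted p = 0.0357) and H2-DMa at -3.02 (adjusted p = 0.0414), lower in isotype skin. Cyp24a1 (log2 -0.05, adjusted p = 0.991) and Krt16 (log2 -0.40, adjusted p = 0.778) did not pass in this comparison. The fl/fl libraries held 1.26% to 6.28% of skeletal muscle counts. Red blood cell genes took 0.181% to 1.26% there, against 0.00651% to 0.0224% in isotype skin. Salivary gland genes took 1.94% in fl/fl library 2, and B cell genes 0.178% in fl/fl library 1. Lower in isotype skin were 5 of 5 red blood cell, 6 of 10 B cell and 7 of 25 alpha-beta T cell genes, with 0 higher. Genotype, injections and experiment differ between the arms too, so the source of a difference cannot be told apart. Without fl/fl library 2 edgeR called 0 genes (4213 at an unadjusted p under 0.05, and 3297 called by DESeq2 on all libraries). The count was 77 without fl/fl library 1, 3176 without fl/fl library 3, and 6, 55 and 6 without isotype libraries 1, 2 and 3.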

How the data were processed

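RNA labelled polyA, from frozen and cryosectioned neck skin, was sequenced in 14 libraries. The authors deposited 1 table of estimated counts per gene symbol, made on build GRCm39 with tools that include DESeq2 1.44.0 and Salmon 1.2.1, per the submitters' processing notes. The roles of these tools and the counting settings are not given in the sources used here. One row without a gene name (0.0137% to 0.913% of counts) was left out. The remaining 35327 symbols were rounded to whole counts and fitted with edgeR 4.0.16 (R 4.3.3): TMM scaling, filterByExpr, and a robust quasi-likelihood test with the 5 group means of all 14 libraries, which share 1 estimate of spread (common dispersion 0.361, 9 residual degrees of freedom). This estimate of spread also rests on libraries outside the 5 compared, with totals from 5.78 to 48 M counts. Olfactory and vomeronasal receptor genes took up to 9.38% of counts in those libraries, against at most 0.439% in the 5 compared. The fit of the 5 libraries alone, without them, called 3553 genes. Genes with a Benjamini-Hochberg adjusted p under 0.05 over 20939 genes were called. The SE is the log2 fold change divided by the square root of F. Absent genes were set against a floor of 3 counts per library, which covers counting error only. The p-values measure the spread between these libraries.

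Genes were named by a rule. It took the 12 largest increases and decreases by log2 fold change (at least 3 counts in each of the 5 libraries and 10 CPM in the higher group), the 10 largest gains and losses in mean CPM, and for each list its key genes and up to 4 further members with the smallest p. Unnamed gene models, receptor segments and pseudogenes were left out of the rule. Not every gene that the rule took is described above. Several key genes that were not called are left out, such as Bmal1, Per1 and Per2 of the clock list. The genes described therefore lean towards those called. Genes described from the stable set were added after their values were seen. The samples and gene lists were chosen with earlier results of these data known. Alternatives were RLE scaling, DESeq2 1.42.0, other filters on low counts, the compared libraries alone, a replicate block, summed untreated libraries, a muscle covariate and leaving out each library. Promoter windows came from RefSeq on GRCm38.p6, and no coordinates of GRCm39 were used.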

Additional observations from a re-analysis of the deposited data

Results flagged for a closer look

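The genes below are those named in the report whose level after MC903 differed between isotype and Il4ra fl/fl skin by edgeR's quasi-likelihood test (adjusted p under 0.05 over all genes), so that the change from untreated skin had a different size in the 2 arms. Both arms are set against the same untreated libraries, the isotype libraries also chose the named genes, and the difference tested is the direct one between the arms, given as isotype minus fl/fl on the log2 scale. The isotype level was higher for Chil3 (2.63), Tfpi2 (2.54), Thbs1 (2.01), Flg2 (1.94), Il1rl1 (1.86), Mmp3 (1.70) and Mmp19 (1.60). It was lower for Mup22 (-5.09), Car3 (-4.51), H2-DMa (-3.02), Wfdc21 (-2.75), Orm1 (-2.48), Col14a1 (-2.48), Clec3b (-2.46), Pi16 (-2.14), Plac8 (-2.09), Tspan8 (-2.04), Ptger3 (-1.91), Dapl1 (-1.71) and Dgat2 (-1.58). None of these 20 differences passed in edgeR without fl/fl library 2, where 0 genes in all were called. The arms also differed in genotype, injections and the content of skeletal muscle, red blood cell, salivary gland and B cell genes. The part of these in the values was not tested.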

How the results depend on the processing

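The number of called genes between isotype and untreated skin (644, with 283 higher and 361 lower) stayed within 1.5 times under RLE scaling (616), without the filter on low counts (613), with at least 1 CPM in 3 libraries (698) and with the skeletal muscle share as a covariate (447). It was 2130 with DESeq2 (1189 higher, 941 lower), 3553 in the 5 libraries alone (1498 higher, 2055 lower) and 50 with the untreated libraries summed into 1 (22 higher, 28 lower). Of the 644 genes, 637, 630 and 49 were called in these. Leaving out 1 library in turn gave 108 to 619 genes, 52 to 516 higher and 32 to 103 lower. Without untreated library 2 the log2 fold changes of all genes had a median of 0.71, against 0.11. A lone untreated library was then assumed to vary like the other groups.

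Isotype against fl/fl skin (1094 genes) gave 883 genes under RLE scaling, 850 without the filter, 1243 with the CPM filter, 3297 with DESeq2, 455 in the 6 libraries alone and 0 to 3176 when 1 library was left out. With the replicate number as a block, 253 genes were called against untreated skin (130 higher, 123 lower) and 175 against fl/fl skin. Deviations of same-numbered libraries correlated at -0.05 and -0.15 across genes, and nothing in the labels pairs them, so they share only a number. Among uncalled genes the direction of Krt5 turned with the block (log2 0.001). Leaving out 1 library in turn gave log2 values on both sides of 0 for Krt5 (-0.15 to 0.93), Krt10 (-1.37 to 0.15) and Fos (-4.13 to 1.87, the last without untreated library 1). The causes were not tested. What depth limits was not compared with the spread between libraries.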
